A study of Homo sapiens with 3 samples.

Results

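To examine where the PRCC-TFE3 fusion protein occupied genes of the lysosomal membrane and its cofactors, peaks at 8 genes were analysed, namely *LAMP1*, *LAMP2*, *MCOLN1*, *CLCN7*, *CD63*, *SCARB2*, *PSAP* and *TPP1*. A peak belonged to a gene when it overlapped the gene or the 10 kb on either side of it, so peaks were assigned by position alone. The genes themselves were chosen with earlier results of these data known. HK-2 cells, an established human line of renal proximal tubule cells, carried HA-tagged PRCC-TFE3 under doxycycline control, and all samples received 0.2 µg/mL doxycycline for 24 h. Chromatin immunoprecipitation through the HA tag gave 2 sequenced libraries, replicate 1 and replicate 2, and 1 library of input DNA from the same kind of cells served as the background. Uninduced cells were not analysed here, so every value below describes cells in which the tagged fusion had been switched on. The library totals were 12235754 tags in replicate 1, 7418533 tags in replicate 2 and 21694931 tags in input DNA.

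TFE3 belongs to the MiT/TFE family of transcription factors, which also includes TFEB, TFEC and MITF. These factors bind E-box sequences with the core CACGTG. An extended form of this core, with GT before it and AC after it, recurs in promoters of lysosomal genes and is known as the CLEAR element, through which the family coordinates the production of lysosomes. In TFE3-rearranged renal cell carcinoma the fusion keeps the DNA-binding part of TFE3. Of the genes examined here, 6 encode membrane proteins of the lysosome, *PSAP* encodes the precursor of the saposins, and *TPP1* encodes a soluble lysosomal protease.

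In total, 55 of the 109205 narrowPeak peaks of replicate 1 and 48 of the 81300 of replicate 2 lay at these genes. Merging the peaks of both replicates gave 59 regions of 117702 in the whole series. Of the 286 input DNA peaks, 0 lay at these genes. The gene windows covered 372 kb of the 2948 Mb spanned by the ChIP peaks, so this count says little.

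The first question was which promoter sequences these genes offer to the fusion. Promoter sequences of RefSeq on GRCh38.p14, from 250 bases before to 50 bases after each annotated start, could be matched for 6 of the 8 genes, all but *LAMP2* and *PSAP*. The motifs CACGTG, which reads the same on both strands, and CACATG, searched on both strands, were located by their letters and cannot overlap each other. The stretches below run 5′ to 3′ on the strand of the gene, with every copy of both motifs in capitals, where CATGTG is CACATG on the opposite strand. They are shown because the number and kind of E-box differ between genes whose occupancy is given below. A match describes the letters and is not evidence of a bound site.

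LAMP1, chr13:113297035-113297255, plus strand: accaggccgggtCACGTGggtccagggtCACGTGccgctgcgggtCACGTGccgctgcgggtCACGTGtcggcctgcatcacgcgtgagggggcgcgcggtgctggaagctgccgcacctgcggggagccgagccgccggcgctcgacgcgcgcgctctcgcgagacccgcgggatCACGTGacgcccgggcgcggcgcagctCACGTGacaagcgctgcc
MCOLN1, chr19:7522571-7522627, plus strand: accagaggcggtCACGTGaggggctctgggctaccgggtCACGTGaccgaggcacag
CLCN7, chr16:1475038-1475108, minus strand: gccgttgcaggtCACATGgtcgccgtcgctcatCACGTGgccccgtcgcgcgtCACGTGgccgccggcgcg
CD63, chr12:55729094-55729201, minus strand: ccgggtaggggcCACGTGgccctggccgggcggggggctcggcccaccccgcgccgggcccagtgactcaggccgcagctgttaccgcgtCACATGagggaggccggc
TPP1, chr11:6619413-6619454, minus strand: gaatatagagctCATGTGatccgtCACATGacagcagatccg
SCARB2, chr4:76213920-76213949, minus strand: gccgccgcagggCACATGactgcggcctcc

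CACGTG was present in the promoters of 4 of the 6 matched genes, *LAMP1*, *MCOLN1*, *CLCN7* and *CD63*, compared with 8.77% of the 27305 genes and 7.26% of the 35116 promoters in the table. *LAMP1* had 6 copies, the most of any promoter in the table and the only promoter with 5 or more. *MCOLN1* held 2 copies, and the downstream copy was the complete extended palindrome, which was found in 0.353% of all promoters. *CLCN7* also held 2 copies, and *CD63* had 1 copy in 1 of its 8 listed promoters. *TPP1* and *SCARB2* had 0 copies of CACGTG in this window. CACATG was also present in 4 of the 6 genes, *CLCN7*, *CD63*, *SCARB2* and *TPP1*, compared with 13.4% of all genes and 11.1% of all promoters. *TPP1* had 2 copies and the others had 1 each.

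Next, occupancy at the gene starts was examined. All 8 genes had a region with a peak of both replicates and a summit of each within 1000 bp of the gene start. Across the genome, 4.31% of 2 kb tiles held such a region, and other gene starts were not compared because no annotation in the hg19 build of the peaks was used. The nearest summits of the 8 genes lay 0 to 121 bp from the start.

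*PSAP* had the highest occupancy at its start. Its saposins are small cofactors that present sphingolipids to lysosomal hydrolases. The region (chr10:73610890-73611358, hg19) had a fold enrichment, as given by the authors' peak caller, of 32.9 in replicate 1 and 26.6 in replicate 2. The fixed-width window of the BED list at this site contained 77 tags in replicate 1 and 47 tags in replicate 2, with 0 input tags. With a floor of 3 input tags set in place of 0, its tag rate was 45.5 times that of input DNA in replicate 1 and 45.8 times in replicate 2. These values depend on the chosen floor and are not lower bounds. With 0 input tags, the exact 95% intervals of the ratio had lower limits of 36.1 in replicate 1 and 35.8 in replicate 2. Among all BED peaks ranked by tags, the *PSAP* start peak stood at percentile 99.7 in replicate 1 and 98.6 in replicate 2. The percentile counts only peaks with fewer tags.

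*CD63* and *LAMP2* came next. CD63 is a tetraspanin of late endosomes and lysosomes, and LAMP2 is an abundant lysosomal glycoprotein with an isoform that acts in chaperone-mediated autophagy. The *CD63* start region (chr12:56123332-56124299, hg19) had fold enrichments of 12.9 and 14.8, with 35 and 25 tags and 0 input tags. The *LAMP2* start region (chrX:119602836-119603399, hg19) had fold enrichments of 13.9 and 13.2, with 31 and 22 tags and 1 input tag. Scaled to 10000000 tags of the library, here called the normalised tag count, *CD63* had 28.6 and 33.7 and *LAMP2* had 25.3 and 29.7. *CD63* was higher within each replicate, by less than the counting error.

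*MCOLN1* and *SCARB2* could not be ordered. MCOLN1 is the cation channel TRPML1, which releases calcium from lysosomes, and SCARB2, also called LIMP-2, carries glucocerebrosidase to the lysosome. The *MCOLN1* start region (chr19:7587213-7587607, hg19) had fold enrichments of 9.12 and 9.53, with 25 and 18 tags against 3 and 2 input tags. The *SCARB2* start region (chr4:77134509-77135415, hg19) had fold enrichments of 13.4 and 9.62, with 30 and 15 tags against 2 input tags in each list. The mean normalised tag count was 22.4 ± 2.76 (SD, n = 2) at *MCOLN1* and 22.4 ± 3.04 at *SCARB2*, and the replicate that was higher differed between them.

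The lowest values were at *CLCN7*, *TPP1* and *LAMP1*. CLCN7 exchanges chloride for protons across the lysosomal membrane, TPP1 removes tripeptides from proteins, and LAMP1 is the other major membrane glycoprotein. *CLCN7* (chr16:1524948-1525217, hg19) had fold enrichments of 9.63 and 8.98, with 17 and 13 tags and 1 input tag. *TPP1* (chr11:6640499-6640881, hg19) had fold enrichments of 8.02 and 7.06, with 15 and 10 tags and 0 input tags. *LAMP1* (chr13:113951255-113951645, hg19) had the lowest values, with fold enrichments of 6.95 and 5.78, 13 and 8 tags and 0 input tags. By the lower of its replicate fold enrichments, the *LAMP1* region stood at percentile 26.1 of all regions shared by both replicates. *LAMP1* and *TPP1* differed by 2 tags in each replicate, which is within counting error. Among the 6 genes with a promoter sequence, *LAMP1* thus had the most CACGTG copies and, with *TPP1*, the fewest tags at the start.

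**Figure D1:**
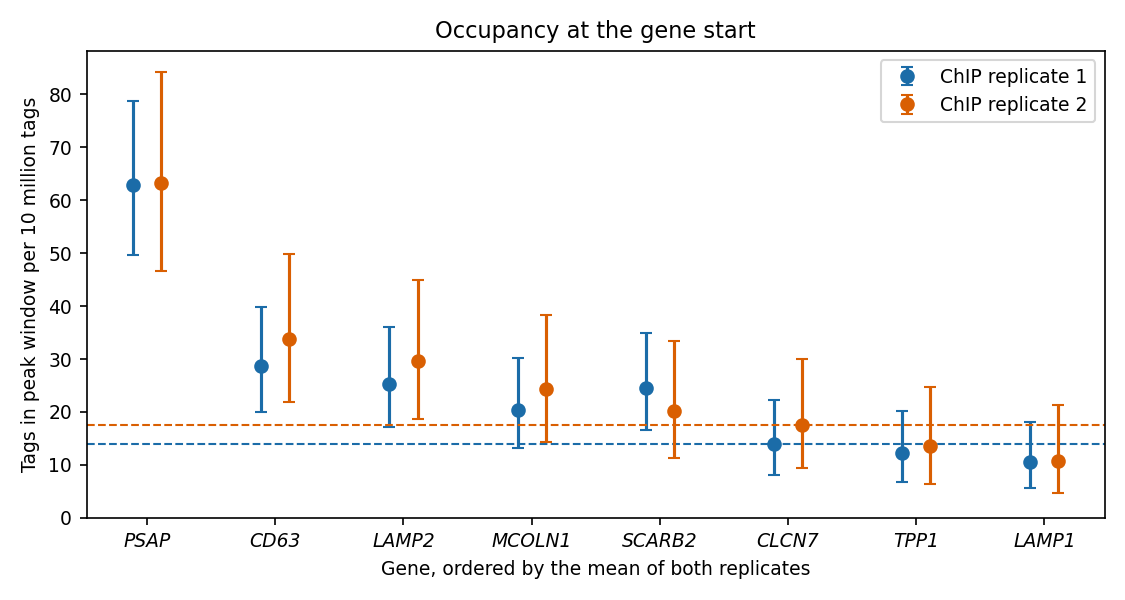
Tags in the fixed-width peak window at the gene start, per 10000000 tags of the library, for each gene and replicate. Bars are exact 95% Poisson intervals for the tag counts and cover counting error only, and dashed lines mark the median BED peak of each replicate. PSAP lies at 62.9 and 63.3, above all others, and LAMP1 lies lowest at 10.6 and 10.8.

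The mean normalised tag count at the gene start was 63.1 ± 0.283 (SD, n = 2) for *PSAP*, 31.2 ± 3.61 for *CD63* and 27.5 ± 3.11 for *LAMP2*. It was 15.7 ± 2.55 for *CLCN7*, 12.9 ± 0.849 for *TPP1* and 10.7 ± 0.141 for *LAMP1*. Of neighbours in this order, the ranges over both replicates overlapped for *CD63* and *LAMP2*, although *CD63* was higher in each library, and for *MCOLN1* and *SCARB2*. The other neighbours were separated by their replicates, but only *PSAP* had counting intervals that did not overlap those of the next gene in replicate 1. In replicate 2, the interval of *PSAP* (46.6 to 84.2) overlapped that of *CD63* (21.8 to 49.7). The fixed-width windows were placed separately in each replicate. At *LAMP1* they were centred at -125 and -4 bp from the start, with counting intervals of 5.66 to 18.2 and 4.66 to 21.2. Its small SD therefore does not measure agreement at a single window. The chromosomes of these genes differed in background. Input tags per BED peak, averaged over all peaks of a chromosome, were 0.440 on chromosome 13, which holds *LAMP1* and had the lowest value of all, and 1.12 on chromosome 10, which holds *PSAP*. They ranged from 0.501 to 0.948 on the chromosomes of the other genes. The part of this difference in the order of the genes was not tested.

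The positions of the summits were then set beside the E-boxes. Distances are from the annotated start in each source, hg19 for peaks and GRCh38.p14 for promoters, and no coordinate was converted. The sources differ in gene length, with 26273 bp in hg19 and 26434 bp in RefSeq for *LAMP1* and 55142 bp and 75796 bp for *SCARB2*, so the starts can differ by more than the distances given here, and the positions are set side by side as a description. Negative positions lie upstream. At *LAMP1*, 4 E-boxes began between -192 and -142 bp, and the remaining copies began at -28 and -1 bp, whereas the summits lay at -78 bp in replicate 1 and -2 bp in replicate 2. At *MCOLN1*, E-boxes began at -41 and -14 bp and the summits lay at -65 and -32 bp. At *CLCN7*, CACGTG began at -47 and -27 bp, and the summits lay at 0 and -26 bp. The summits of the replicates were 76 bp apart at *LAMP1*, 57 bp at *SCARB2*, 42 bp at *TPP1*, 33 bp at *MCOLN1* and 26 bp at *CLCN7*. *LAMP1* also had the fewest tags at the start, 13 and 8, and the part of low counts in its gap was not tested. Which E-boxes a summit lay between cannot be read from distances to differing starts. At *TPP1*, CACATG motifs began at -20 and -8 bp, and the summits lay at 13 and -29 bp. At *SCARB2*, CACATG began at -113 bp and the summits lay at -64 and -121 bp. *CD63* was not compared in this way, since its promoters in the table start at different positions.

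**Figure D2:**
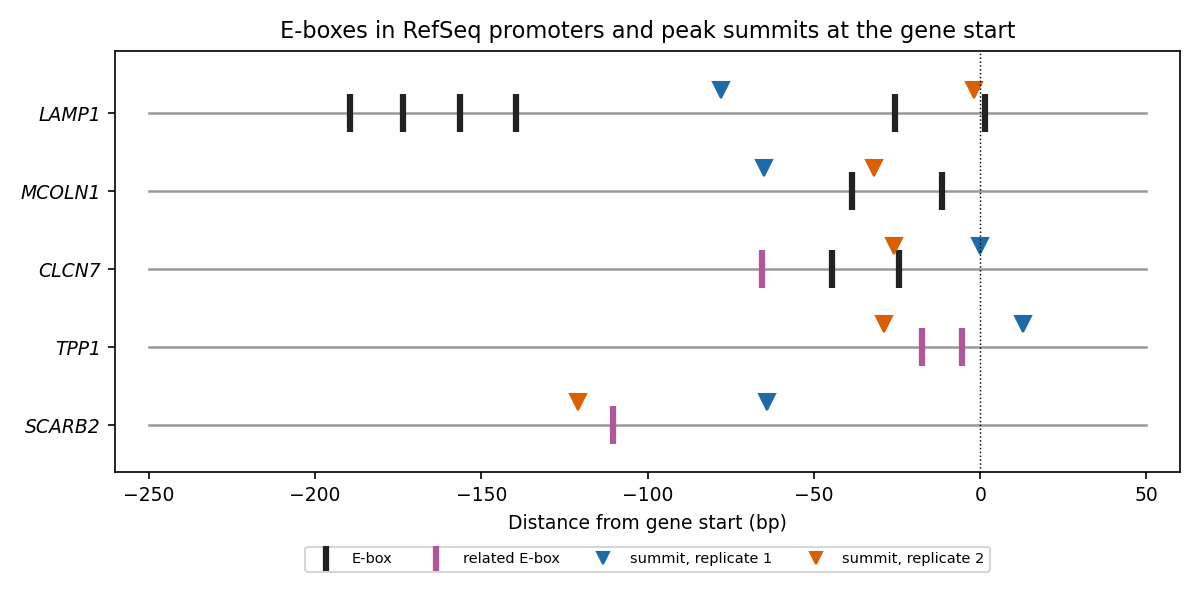
Start positions of E-boxes (black ticks for CACGTG and purple ticks for CACATG on either strand) in 5 promoters on a linear axis of distance from the gene start in bp, with the summits of both replicates as triangles. LAMP1 carries 6 black ticks, while TPP1 and SCARB2 carry purple ticks alone. Summits are placed from the hg19 start and E-boxes from the GRCh38.p14 start, which can differ, so their order on the axis is not established.

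To see whether occupancy was limited to the starts, all regions at the genes were described. Of the 59 regions, 45 (76.3%; 95% Wilson interval, 64.0% to 85.3%) were present in both replicates, compared with 59.8% of regions in the whole series. The interval covers counting error only, and neighbouring regions are not independent. Among the shared regions, 21 had their stronger summit inside the gene, 13 lay upstream and 11 downstream. All 8 windows held a shared region, compared with 46.8% of genome tiles as long as the median window of 48.2 kb. Shared regions numbered 12.1 per 100 kb at these genes and 2.39 per 100 kb over the whole series. Every window holds a gene with its start, whereas the tiles and the whole series include stretches without genes. These comparisons therefore do not set the 8 genes apart from other genes. Peak density also differed between chromosomes, in replicate 1 from 1.71 narrowPeak peaks per 100 kb on chromosome X to 7.02 on chromosome 19. The lower-of-both fold enrichment of shared regions ranged from 2.96 to 26.8, with a median of 8.98 against 7.65 for all shared regions.

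The genes differed widely in the number of regions. *SCARB2* had 11 shared regions, *CD63* had 10, *PSAP* had 9, *LAMP2* and *TPP1* had 4 each, *MCOLN1* and *CLCN7* had 3 each and *LAMP1* had 1. Per length, *CD63* was the most densely occupied, with 41.2 shared regions per 100 kb of its window. However, only 2 of its 10 shared regions had their stronger summit inside the gene, which is 4263 bp long. The remaining 8 had it outside the gene. They include the start region, with summits at -5 and -31 bp, and otherwise lay in the flanks toward other genes. *LAMP1* was the sparsest, with 2.16 per 100 kb, close to the value of the whole series, but this rests on 1 shared region. Its chromosome 13 was itself sparse, with 2.04 and 1.44 narrowPeak peaks per 100 kb in replicates 1 and 2. Over the whole series these values were 3.70 and 2.76.

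**Figure D3:**
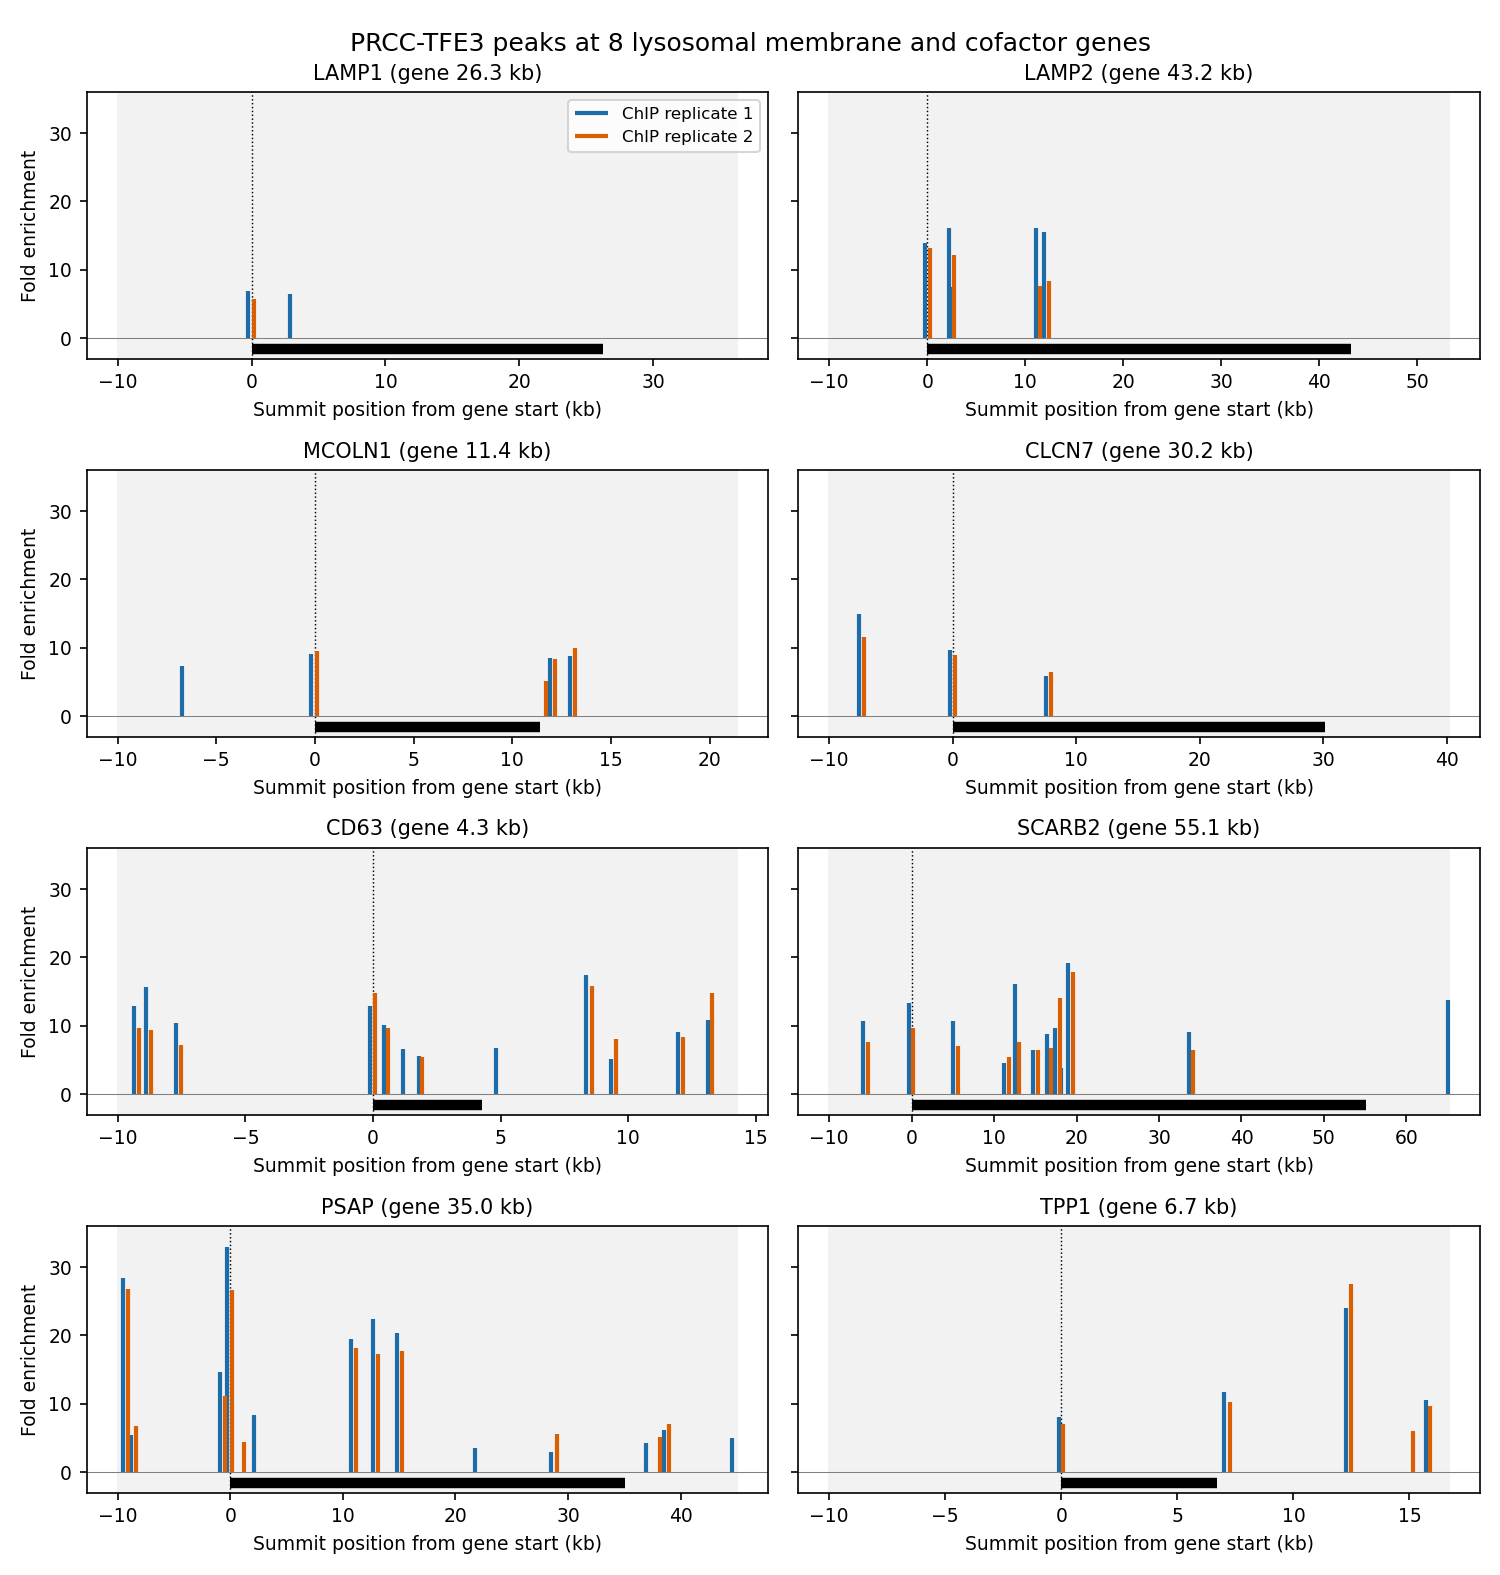
NarrowPeak peaks at each gene, placed by the distance of the summit from the gene start in kb, with stick height giving the fold enrichment in replicate 1 (blue) and replicate 2 (orange). Sticks of the replicates are moved slightly apart. The black bar is the gene and the grey area is the window. PSAP has sticks above 26 in both replicates at the start and 9.3 kb upstream, whereas LAMP1 has a single position with both colours. The region at the far end of the SCARB2 window shows replicate 1 only because the replicate 2 peak lies just outside the window.

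At 5 genes the strongest shared region, by the lower-of-both fold enrichment, was not the one at the start. At *PSAP*, it lay upstream (chr10:73620071-73620690, hg19), toward *CHST3*, with summits at -9309 and -9291 bp and fold enrichments of 28.3 and 26.8. Its BED peaks had 79 and 56 tags and 0 input tags. The fold enrichments of this site and the start site overlapped, and its normalised tag counts, 64.6 and 75.5, lay within the counting intervals of the start site, 49.7 to 78.7 in replicate 1 and 46.6 to 84.2 in replicate 2. Within the gene, 3 further regions with summits 10965 to 15080 bp from the start had lower-of-both fold enrichments of 17.2 to 18.2.

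At *TPP1*, the strongest region was beyond the 3′ end (chr11:6628080-6628537, hg19), with fold enrichments of 24.1 and 27.6 and with 45 and 43 tags against 0 input tags. It was well above the start region, which had 8.02 and 7.06. In the RefSeq gene order, *TAF10* and *ILK* follow *TPP1* on this side, so the region is not particular to *TPP1* by position. At *CD63*, the strongest region also lay beyond the 3′ end (chr12:56114690-56115268, hg19), with fold enrichments of 17.5 and 15.8, and *RDH5* is the next gene on that side.

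At *SCARB2*, the strongest region was inside the gene (chr4:77115411-77115941, hg19), with summits 19319 and 19314 bp from the start and fold enrichments of 19.2 and 17.9. *SCARB2* had 8 shared regions within the gene body of 55142 bp. The shorter genes *LAMP2* (43202 bp) and *PSAP* (35028 bp) had 4 each. The count at *LAMP2* includes its start region, whereas the start regions of *SCARB2* and *PSAP* had their stronger summit upstream. Whether the regions within these genes lie in exons or introns was not analysed here. At *CLCN7*, the strongest region lay upstream (chr16:1532246-1532609, hg19), toward *PTX4*, with fold enrichments of 15.0 and 11.6, compared with 9.63 and 8.98 at the start.

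By the same measure the start region ranked first at *LAMP2* and *MCOLN1*, and *LAMP1* had no other shared region. The order rests on the measure used. *LAMP2* had 3 further shared regions inside the gene, with fold enrichments of 16.05 and 12.19 at 2451 bp from the start, 16.05 and 7.70 at 11313 bp, and 15.5 and 8.34 at 12172 bp, by the summit of replicate 1. All 3 were above the start region in replicate 1 and below it in replicate 2, and the first had the higher mean, 14.1 ± 2.73 (SD, n = 2) against 13.6 ± 0.46. At *MCOLN1*, 2 shared regions lay beyond the 3′ end, where *PNPLA6* is the next gene. One had fold enrichments of 8.56 and 8.34 and the other 8.83 and 10.03, a mean of 9.43 ± 0.85 against 9.32 ± 0.29 at the start.

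Finally, the replicates were compared. At 39 sites both BED lists held a peak, with 1093 tags in replicate 1 and 730 in replicate 2. Replicate 2 thus contributed 40.0% of the tags (exact 95% interval, 37.8% to 42.3%), compared with 39.8% over all 55651 matched peaks. Sites enter this comparison only if both lists held a peak, so strongly unequal sites were left out beforehand. The test against the common split (two-sided exact binomial test with Benjamini-Hochberg adjustment over all matched peaks) made 0 calls among the 39 sites and 0.0% over all matched peaks, so the count of 0 says little about these genes. At an unadjusted p below 0.05 there were 0 of the 39 sites and 2.2% of all matched peaks with the common split, 2 sites and 3.19% with the split of the library totals, and 1 site and 2.08% with the split of the same chromosome. With the common split, the smallest unadjusted p was 0.0671 (exact binomial test, adjusted p = 1), at the *SCARB2* site with 17 and 21 tags. At the *LAMP2* sites inside the gene that had fold enrichments of 15.5 and 8.34 and of 16.05 and 7.70, 29 and 12 tags gave p = 0.202 (exact binomial test, adjusted p = 1) and 29 and 11 tags gave p = 0.145 (exact binomial test, adjusted p = 1). At these depths, differences of this size between the libraries were not detectable beyond counting error.

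**Figure D4:**
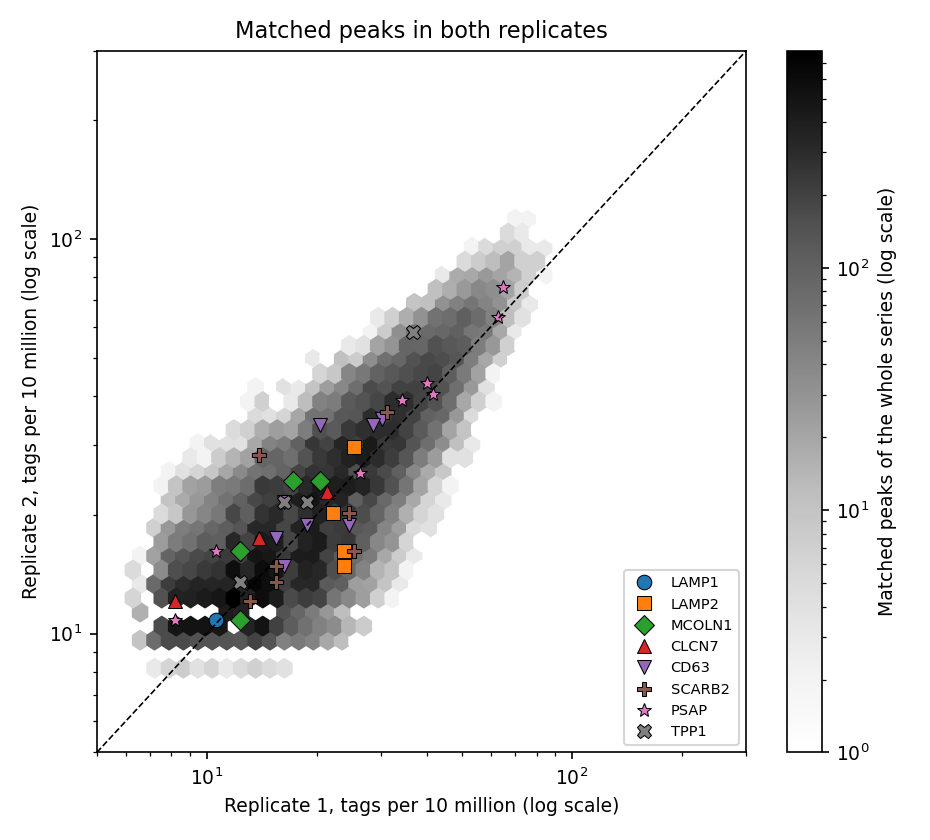
Tags per 10000000 library tags in replicate 1 and replicate 2 at the 39 matched BED peaks of the 8 genes (symbols) over all 55651 matched peaks (grey, darker for more peaks), both axes on a log scale, with the dashed line marking equality. The PSAP sites at the start and 9.3 kb upstream lie at the upper end, at 62.9 and 63.3 and at 64.6 and 75.5.

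A total of 14 regions appeared in 1 replicate only. Replicate 1, the deeper library, had 10 of them, with fold enrichments of 3.49 to 8.36, and replicate 2 had 4, with 4.39 to 6.01. *PSAP* accounted for 6 of the 14. At 2 of the replicate 1 regions, 1 at *MCOLN1* and 1 at *PSAP*, the BED list of replicate 2 nevertheless held a peak with 8 tags.

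Input tags were few at all sites, as they were over the whole series. BED peaks held a mean of 0.884 and 0.878 input tags at these genes in replicates 1 and 2. Over all BED peaks the means were 0.874 and 0.876. The BED peaks at these genes held 1159 tags in replicate 1 and 752 tags in replicate 2, against 38 and 36 input tags in the same windows, and no window had more than 3 input tags. The ChIP tag rate was 54.1 times that of input DNA in replicate 1 (exact 95% interval, 39.2 to 76.8) and 61.1 times in replicate 2 (43.7 to 87.9). Over all BED peaks the ratios were 43.8 and 54.2, both within these intervals. Since the windows were called for their ChIP tags in the same libraries, these ratios carry no test. Calling against input DNA also favours windows with few input tags, so the low input was favoured beforehand.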

How the data were processed

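The authors deposited peak lists called separately for each sample. For peak calling, the methods name MACS within Strand NGS, run against input DNA, and the submitters' processing notes name hg19. The aligner is not given in the sources used here. In the deposited narrowPeak lists, each peak has a fold enrichment ratio, −log10 p and q values, a score and a summit. The deposited BED lists follow the HOMER column order with displaced header names, and their columns (score, tag count, signal per 10000000 tags, scaled input signal, fold ratios, p-values and a fraction) were read by position. Starts in both lists were read as 0-based and are printed 1-based.

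Gene bounds were hg19 coordinates. With hg38 starts of GENCODE, 0 of the 8 genes had summits of both replicates within 1000 bp, so hg38 was not combined with the peaks. Library totals were the sum of tags divided by the sum of scaled signal. The number of input tags in each peak was worked back from its tags and its fold over input, and 100% came out whole within 0.1 tag. The same input library enters both lists.

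Peaks overlapping by at least 1 bp were merged, and a region with peaks of both replicates was called shared. Genome tiles covered chromosomes 1 to 22 and X from the first to the last peak. BED peaks were matched between replicates by their largest overlap, and each pair was tested with a two-sided exact binomial test, after a test on simulated data (Python 3.11.15, scipy 1.17.1). Matched peaks share their libraries, so p-values compare these 2 libraries and cover counting error only. The study calls the ChIP libraries biological replicates. For each gene, the text names the region nearest to the start and the shared region whose lower replicate value was greatest. Other regions and sites named singly were chosen after their values were seen. The genes and lists were chosen with earlier results of these data known.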

Additional observations from a re-analysis of the deposited data

How the results depend on the processing

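Of 51 alternatives to 10 results, 46 stayed within the limits set for them and 5 moved. Some of the 46 could not have moved. For density, strength and the ChIP to input ratio, the limit was the SD of both replicates, which leaving out 1 replicate cannot exceed. The counts of genes with a peak could not fall in either replicate alone, since the main results required both. Counting gene bodies without flanks lowered the mean number of peaks per replicate from 51.5 to 30 and the shared regions from 45 to 27, by construction. The share of regions that were shared rose from 76.3% to 86.7% with the BED lists, where the whole series had 60.4%. With q below 1e-05, peak density at the genes was 4.92 times that of the whole series, compared with 4.34 times. Limiting BED peaks to those in a shared narrowPeak region raised the mean ratio of ChIP to input tags from 57.6 to 66.9. The cause of the last 3 moves was not tested. That limit, the CACATG motif and leaving out either replicate for peak number, density and strength were chosen after the data were examined. All 8 genes kept a peak at the start with the BED lists and with q below 1e-05. They also did so with summits within 500 bp and in either replicate alone (8 genes each). Those last counts followed from the main definition and from summits at 0 to 121 bp, so they add no support. Leaving out either replicate gave 48 to 55 peaks, a density 3.99 to 4.68 times that of the whole series, a median peak at percentile 61.3 to 64.7 of its list and a ChIP to input ratio of 54.1 to 61.1. Shared regions cannot be counted with 1 replicate. No paired analysis was possible because both numbered libraries belong to 1 group. Depth limits the weak sites most, since the *LAMP1* start window held 8 tags in replicate 2, and a region missing from the shorter list of replicate 2 cannot be taken as absent there.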

Other observations

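E-boxes were also counted in the promoters of other lysosomal membrane and cofactor genes, whose occupancy was not analysed here. Of 32 listed genes, 26 had a RefSeq promoter, and 5 of these (19.2%) contained CACGTG, compared with 8.77% of the 27305 genes in the table. They were *SLC36A1*, an amino acid transporter, *MFSD1*, a transporter of the lysosomal membrane, *CLN3*, a membrane protein that is mutated in juvenile ceroid lipofuscinosis, *SPNS1*, a lysophospholipid transporter, and *ABCB9*, a peptide transporter. The extended motif, with GT before the core and AC after it and at most 1 other base in these flanks, was present in 3 of them. These were *MFSD1*, *CLN3* and *SPNS1*, or 11.5% of the 26 genes, compared with 1.74% of all genes. Of the 6 matched genes described above, 3 held it, *LAMP1*, *MCOLN1* and *CLCN7*. The related motif CACATG was present in *CD68*, *MFSD1* and *SPNS1*, or 11.5% of the 26 genes, compared with 13.4% of all genes.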
